A study of Mus musculus with 4 samples.

Results

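The erythroid genes examined here were *Rhag*, *Klf1*, *Gata1*, *Zfpm1*, *Hba-a1*, *Alas2*, *Slc4a1*, *Car1* and *Car2*, 9 of the 28095 gene names on the array, each found by its symbol and each measured by a single 60-base probe. Their RNA was measured in LSK cells (lineage-negative, positive for Sca-1 and c-Kit), the bone marrow fraction that holds hematopoietic stem cells and early progenitors. Meis1-KO cells came from *Mx1-Cre Meis1* fl/fl mice, in which Cre removes the homeodomain exon of *Meis1*, and Meis1-WT cells from *Meis1* fl/fl controls without Cre, all aged 4 to 8 weeks at treatment. Cre was induced by 4 injections of poly(I:C) at 1.5 µg per g body weight, and the sources used here differ on whether controls received poly(I:C) or a sham treatment. Each array carried RNA of 1 pool of 6 mice, collected 1 week after treatment, with 2 pools per genotype. *Mx1-Cre* is switched on by interferon and acts in many tissues, so the deletion was not limited to LSK cells. The genes were selected on the same genotype contrast of these arrays, so their values are a description, and where they meet the study's criteria this is no independent support.

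Red cell formation begins in progenitors that still carry the LSK or c-Kit phenotype and ends in cells that devote most of their RNA to globin. GATA1 and its cofactor FOG1, encoded by *Zfpm1*, together with KLF1 switch on the globin, heme and membrane genes of this lineage. RHAG and SLC4A1 (band 3) sit in the red cell membrane, ALAS2 starts heme synthesis in erythroid cells, and the carbonic anhydrases CAR1 and CAR2 interconvert carbon dioxide and bicarbonate.

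The 4 probes that carry the main differences are given in their 5′ to 3′ direction with mm9 positions from the array annotation. The 60 bases of the *Hba-a1* probe are placed by that annotation over 182 bases of chromosome 11. Capitals mark the 30 bases that end the *Hba-a1* probe and open the *Hba-a2* probe, of which 27 are identical and 3 differ. Signals of these 2 alpha-globin genes could therefore not be separated with certainty.
*Rhag* probe, chr17:40976929-40976988, plus strand: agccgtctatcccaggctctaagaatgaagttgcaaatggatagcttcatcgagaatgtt
*Car1* probe, chr3:14767486-14767545, minus strand: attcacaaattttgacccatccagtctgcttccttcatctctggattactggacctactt
*Hba-a1* probe, chr11:32183775-32183956, plus strand: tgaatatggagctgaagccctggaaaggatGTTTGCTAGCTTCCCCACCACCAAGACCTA
*Hba-a2* probe, chr11:32196744-32196803, plus strand: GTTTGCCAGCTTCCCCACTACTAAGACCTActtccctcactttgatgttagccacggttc

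The 9 genes did not move as a single program. At the level of genotype means 3 genes were higher and 6 lower in Meis1-KO LSK cells, and 4 genes (*Rhag*, *Car1*, *Car2* and *Slc4a1*, the last with dim spots on slide 2) differed in the same direction on both slides, a slide being the glass support that held replicate 1 (slide 1) or replicate 2 (slide 2) of both genotypes. *Rhag* was 3.30-fold higher in Meis1-KO cells and *Car1* 3.42-fold lower, and these were the 2 genes whose genotypes did not overlap. *Hba-a1* and *Slc4a1* differed far more between the slides than between the genotypes. Values are log2 processed signals minus the 75th percentile of each array, and the level of one probe was not set against that of another.

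**Figure D1:**
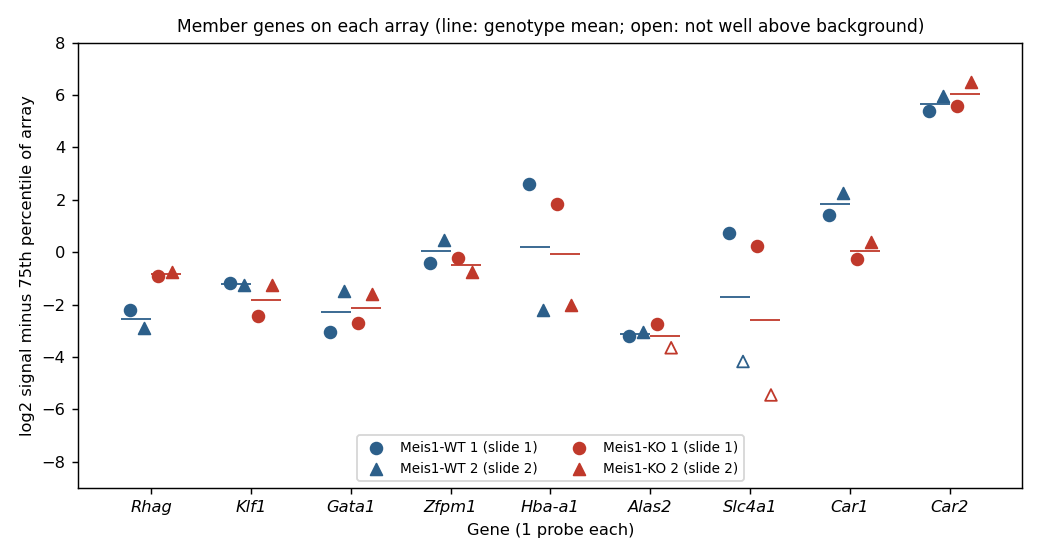
Log2 signal minus the 75th percentile of the array (vertical axis) for each member gene (horizontal axis). Each point is 1 array, blue for Meis1-WT and red for Meis1-KO, circles for slide 1 and triangles for slide 2, and short lines are genotype means of 2 arrays. The genotypes are apart for *Rhag* and *Car1*, and *Hba-a1* and *Slc4a1* split by slide.

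Of these genes, 8 passed the filter on dim probes, which asked that either genotype have both its arrays well above background, and 7 were well above background on all 4 arrays. The study's criteria of differential expression were a change of more than 2-fold with an unadjusted p below 0.01. By limma, 1 of the 8 tested genes met them, against 0.736% of the 22008 tested probes, and 2 met them once the slide entered the fit as a block, against 1.93%. The 2 genes without overlap stand beside 26.9% of all tested probes. Nothing is read from these shares, since the genes were chosen on this contrast.

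LSK cells of all 4 arrays carried the markers of their sort. Of the 11 LSK marker genes, 10 were well above background on all arrays. Of 10 erythroid marker genes, 10 were well above background on both slide 1 arrays, 8 on Meis1-WT 2 and 7 on Meis1-KO 2. Their summed scaled signal was 10.6 and 6.13 on the Meis1-KO arrays and 15.4 and 10.2 on the Meis1-WT arrays. The sum weighs bright genes most and includes member genes selected on this contrast, *Car1* and *Hba-a1* among them. No general fall is read from it, since *Rhag*, *Gata1* and *Epor* had higher means in Meis1-KO and the other markers lower means. Meis1-KO 2 was the dimmest array, with 49.2% of spots well above background against 54.7% to 57.4% on the others, and a correlation with them of 0.891 to 0.916 across probes. The sort used a lineage cocktail that included TER119, an antigen of red cells and their late precursors. In such bulk samples, fewer cells of a type and less RNA per cell cannot be told apart.

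*Rhag* encodes the Rh-associated glycoprotein, an ammonia channel and scaffold of the Rh complex. Its log2 values were -0.91 and -0.77 in Meis1-KO 1 and 2, and -2.21 and -2.91 in Meis1-WT 1 and 2. Both Meis1-KO arrays lay above both Meis1-WT arrays, and all 4 were well above background. The deposited signals behind these values were 77.5 and 52.2 in Meis1-KO and 31.1 and 20.1 in Meis1-WT, so the probe was dim throughout. The genotype difference was 1.72 on the log2 scale with a standard error of 0.46. It was 1.30 (2.46-fold) on slide 1 and 2.15 (4.42-fold) on slide 2. *Rhag* stayed higher in Meis1-KO under all 11 settings, at 0.85 after normexp background correction and at most 2.08. The slide block is among these settings and cannot change the difference. It no longer met the study's criteria when Meis1-KO 2, Meis1-WT 1 or Meis1-WT 2 was left out, by the methods' t-test, or with quantile, normexp or no scaling, an intensity trend or no filter on dim probes.

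*Rhd*, the partner of *Rhag* in the Rh complex, went the other way. Its log2 values were -1.40 and -1.09 in Meis1-KO 1 and 2, and -0.25 and -0.26 in Meis1-WT 1 and 2. Both Meis1-KO arrays lay below both Meis1-WT arrays. The difference of -0.99 (standard error 0.43) did not meet the criteria (adjusted p = 0.983 by limma). The other members of the Rh family, *Rhbg* and *Rhcg*, were not well above background on any array.

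The 5 genes whose pattern over the 4 arrays lay closest to that of *Rhag* were *Tlcd2*, *Ffar2*, *Ccdc55*, *Hpse* and *Zfp605*. Likeness was the root mean square distance between the centered log2 values at each gene's brightest probe, among 10666 genes well above background on all arrays, and the pattern of *Rhag* follows the contrast for which it was selected. Their distances were 0.159, 0.196, 0.219, 0.252 and 0.255, against a median of 0.887. None of them is in the erythroid lists. *Car2* ranked 4785th, *Gata1* 9286th, *Klf1* 9559th, *Zfpm1* 9691st, *Car1* 10552nd and *Hba-a1* 10642nd.

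Carbonic anhydrase genes did not share a direction. *Car1*, the erythroid carbonic anhydrase, had log2 values of -0.26 and 0.37 in Meis1-KO 1 and 2, and of 1.40 and 2.27 in Meis1-WT 1 and 2. All Meis1-KO values lay below all Meis1-WT values, with deposited signals of 122 and 115 against 380 and 729. The genotypes differed by -1.77 (standard error 0.52), and this value was close on the 2 slides, at -1.65 (3.15-fold lower) and -1.89 (3.72-fold lower). *Car1* did not meet the criteria in the fit without a slide term. It met them once the slide was blocked (standard error 0.47). It also met them without a slide term after normexp, with the filter on all arrays, with an intensity trend or with no scaling. It was lower in Meis1-KO under all 11 settings, between -2.21 without Meis1-WT 1 and -1.34 without Meis1-WT 2. The slide block, among these settings, cannot change the difference.

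*Car2*, the high-activity isoform that red cells and many other cells use, lies near *Car1* on chromosome 3 (chr3:14900206-14900265 for its probe). Its log2 values were 5.57 and 6.50 in Meis1-KO 1 and 2, and 5.40 and 5.96 in Meis1-WT 1 and 2. The genotypes overlapped, and slide 2 was higher in both. The difference of 0.36 (standard error 0.52) was smaller than the spread of the Meis1-KO arrays (SD 0.65, n = 2). It turned to -0.10 without Meis1-KO 2, and it also changed sign with no scaling. Of 16 carbonic anhydrase genes, 8 were tested, 6 were higher and 2 lower, and none met the criteria. *Car13* differed by 0.95 (standard error 0.47) and *Car3* by -0.78 (standard error 0.52).

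*Klf1*, *Gata1* and *Zfpm1* overlapped between genotypes. *Klf1*, the erythroid zinc finger activator of adult globin genes, had log2 values of -2.44 and -1.24 in Meis1-KO 1 and 2, and -1.20 and -1.27 in Meis1-WT 1 and 2. A single array, Meis1-KO 1, was low, and the other 3 lay within 0.07 of each other. The difference was -0.61 (standard error 0.54), with -1.25 on slide 1 and 0.03 on slide 2. Without Meis1-KO 1 it was -0.01 and without Meis1-KO 2 it was -1.21.

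*Gata1*, the master regulator of erythroid and megakaryocytic genes, was spotted 10 times on each array. Its averaged log2 values were -2.71 and -1.59 in Meis1-KO 1 and 2, and -3.07 and -1.47 in Meis1-WT 1 and 2. In both genotypes the slide 2 array was higher, by 1.59 in Meis1-WT and 1.12 in Meis1-KO. Repeat spots within an array differed by a log2 SD of 0.10 to 0.18, so the difference between slides was larger than the spotting error. The slides also held different pools of mice, so slide and pool cannot be told apart. The genotype difference was 0.12 (standard error 0.69), 0.36 on slide 1 and -0.12 on slide 2, and its sign turned with no scaling and without Meis1-KO 2 or Meis1-WT 1.

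*Zfpm1*, which encodes the GATA1 cofactor FOG1, had log2 values of -0.23 and -0.74 in Meis1-KO 1 and 2, and -0.42 and 0.48 in Meis1-WT 1 and 2. The genotypes overlapped. The difference was -0.51 (standard error 0.51), with 0.20 on slide 1 and -1.22 on slide 2. Without Meis1-WT 2 it was -0.06 and without Meis1-WT 1 it was -0.96.

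All 18 genes of a wider list of erythroid transcription factors and cofactors were tested, and 0 of 32 probes met the criteria by limma, with or without the block. Of these genes, 7 were higher and 11 lower in Meis1-KO, with a median difference of -0.15 against 0.08 over all tested probes. At the brightest probe of each gene, 6 of the 18 genes did not overlap between genotypes, beside 26.9% of all tested probes, and the largest differences besides that of *Klf1* were those of *Cbfa2t3*, a corepressor of the TAL1 complex, at -0.76 (standard error 1.19), and *Sfpi1*, the gene of PU.1, at 0.66 (standard error 0.46). *Cbfa2t3* had values of 4.02 and 0.46 in Meis1-KO 1 and 2, and 3.80 and 2.21 in Meis1-WT 1 and 2. It was lower on slide 2 in both genotypes, by 1.59 in Meis1-WT and 3.57 in Meis1-KO. Among the other probes, 1 of *Zbtb7a* differed by -1.01 (standard error 0.45), and 1 of *Sox6* by -0.77 on slide 1, while on slide 2 its Meis1-KO spot was not well above background.

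*Alas2*, the erythroid form of the first heme enzyme, had log2 values of -2.73 and -3.65 in Meis1-KO 1 and 2, and -3.18 and -3.05 in Meis1-WT 1 and 2. The Meis1-KO 2 value was not well above background, and the signals were 7.07 to 21.8, close to the limit of the array. The difference of -0.08 (standard error 0.49) had opposite signs on the slides, 0.45 and -0.60, and it also changed sign with median scaling, quantile scaling, normexp or without Meis1-KO 2.

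Among 12 heme synthesis genes, 10 were higher and 2 lower in Meis1-KO at their brightest probe, with a median of 0.10 against 0.08 over all tested probes. Of their 16 probes, 2 rose by the study's criteria and none fell, beside 0.736% of all tested probes in either direction, and both were dim in Meis1-WT. Of these, 1 belonged to *Alad*, which encodes the enzyme that forms porphobilinogen. Only a bound holds for this probe. *Alad* was at least 1.56-fold higher there in Meis1-KO (adjusted p = 0.983 by limma), so a rise of more than 2-fold is not established. The brightest *Alad* probe, well above background on all arrays, differed by 0.13 (standard error 0.65), so the probes of this gene did not give the same result. *Urod* and *Alas1* differed by 0.41 (standard error 0.46) and 0.39 (standard error 0.48).

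**Figure D2:**
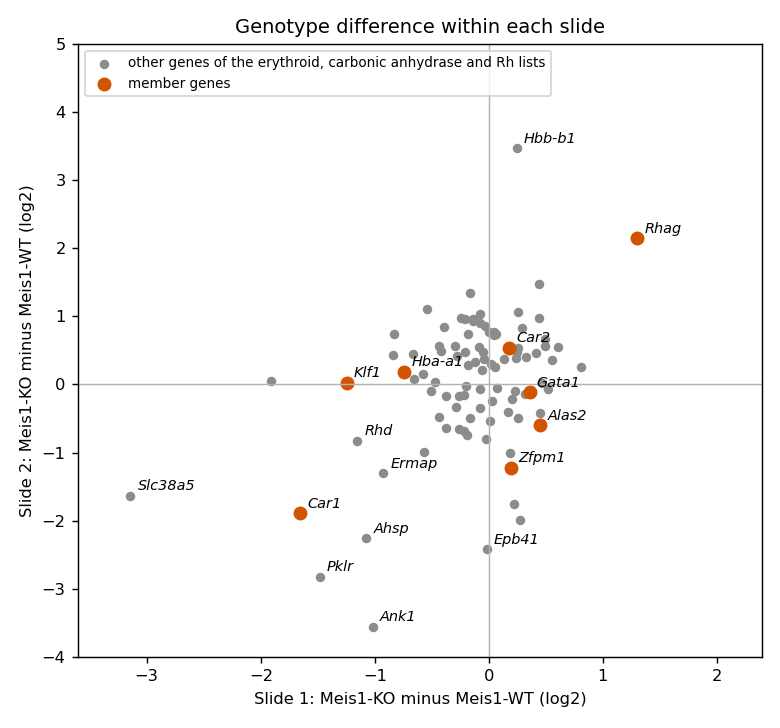
Meis1-KO minus Meis1-WT on the log2 scale on slide 1 (horizontal axis) and slide 2 (vertical axis), at the brightest tested probe of each gene. Orange points are member genes and grey points other genes of the erythroid, carbonic anhydrase and Rh lists. *Rhag* is alone far in the upper right at 1.30 and 2.15, *Car1* lies in the lower left, and the other tested members lie near an axis or have opposite signs, except *Car2*.

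*Hba-a1*, an adult alpha-globin gene, divided the arrays by slide. Its log2 values were 1.86 in Meis1-KO 1 and 2.60 in Meis1-WT 1, both on slide 1, and -2.03 in Meis1-KO 2 and -2.21 in Meis1-WT 2, both on slide 2. The deposited signals were 526 and 871 on slide 1 against 21.8 and 32.7 on slide 2. In Meis1-WT the slide 1 array was 28.0-fold higher than the slide 2 array, and in Meis1-KO 14.8-fold. The mean slide difference was -4.35 on the log2 scale, and only 4 of 22008 tested probes, *Hba-a1* among them, had one of this size, against a median absolute slide difference of 0.46. The genotype difference was -0.28 with a standard error of 1.81, and -0.74 on slide 1 and 0.18 on slide 2. It ranged from -2.68 without Meis1-WT 2 to 2.13 without Meis1-WT 1.

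*Slc4a1*, the gene of the anion exchanger band 3, was likewise split by slide. Its log2 values were 0.25 in Meis1-KO 1 and 0.72 in Meis1-WT 1 on slide 1, and -5.45 in Meis1-KO 2 and -4.18 in Meis1-WT 2 on slide 2. It was well above background on the slide 1 arrays alone, in both genotypes, and was therefore not tested. On slide 1, where both arrays measured it, the genotype difference was -0.47. The mean of -0.88 over both slides rests in part on the dim slide 2 spots, and it lay between -3.73 without Meis1-KO 1 and 1.97 without Meis1-KO 2.

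*Hba-a2*, the other adult alpha-globin gene, was also higher on slide 1 in both genotypes. It differed by -4.40 in Meis1-WT and -3.29 in Meis1-KO (slide 2 minus slide 1).

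Some markers of granulocytes and monocytes moved with the slide as well. Of 10 neutrophil and monocyte markers above background on at least 2 arrays, 6 were lower on slide 2 by more than 1.5 on the log2 scale in both genotypes (*S100a9*, *S100a8*, *Camp*, *Ngp*, *Ltf* and *Csf1r*), as were 3 of 8 mast cell, basophil and eosinophil markers (*Prss34*, *Epx* and *Prg2*). *Camp*, *Ltf*, *Prss34* and *Epx* were well above background on the slide 1 arrays alone, and *Csf1r* was dim in Meis1-KO 2. Their sizes therefore rest in part on dim spots. *Mpo*, *Elane*, *Prtn3* and *Ctsg* of the neutrophil and monocyte list did not pass this limit, and *Elane* and *Prtn3* were higher on slide 2 in both genotypes. Over all tested probes a fall of this size on slide 2 in both genotypes held for 92 of 22008, or 0.418%. A tested probe had to be well above background on both slides in a genotype. This share therefore leaves out probes above background on slide 1 alone and is not a like comparison. *S100a9*, the gene of a calprotectin subunit, had values of 5.03 and 6.09 on slide 1 and 1.87 and 1.34 on slide 2. The summed scaled signal of the neutrophil and monocyte list was 168 and 117 in Meis1-KO 1 and 2, and 184 and 60.1 in Meis1-WT 1 and 2. None of 11 LSK markers, 10 megakaryocyte markers or 7 measured B lineage markers was lower on slide 2 by this limit. In the other direction, the megakaryocyte marker *Gp5* was higher on slide 2 by 3.13 in Meis1-WT and 3.07 in Meis1-KO, and the iron reductase gene *Steap3* by 3.26 and 2.47. Both were well above background on the slide 2 arrays alone, so these sizes rest in part on dim spots. The lineage cocktail of the sort also held antibodies to CD11b and Gr-1, antigens of granulocytes and monocytes. The cause of the slide differences of *Hba-a1*, *Slc4a1* and these markers was not tested.

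**Figure D3:**
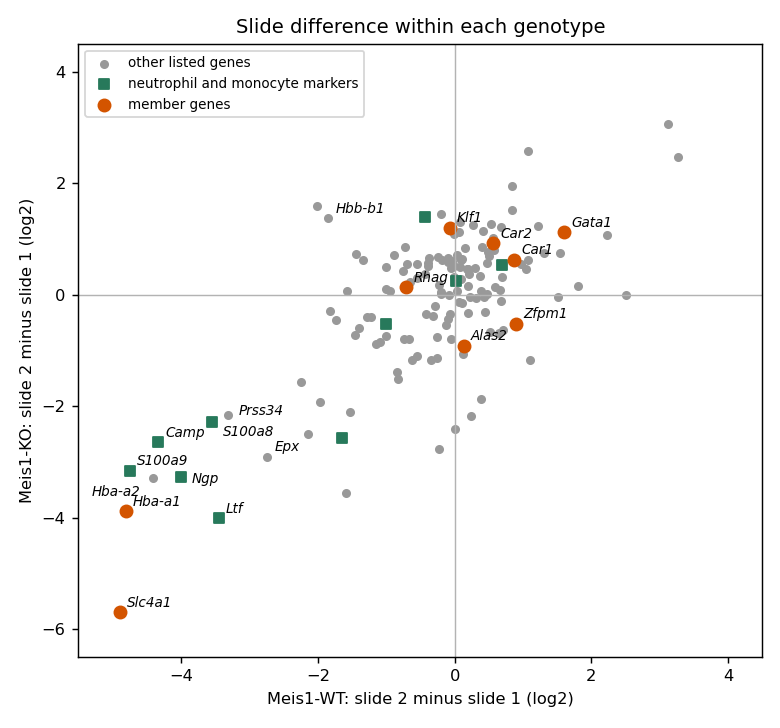
Slide 2 minus slide 1 on the log2 scale in Meis1-WT (horizontal axis) and Meis1-KO (vertical axis), at the brightest probe of each listed gene above background on at least 2 arrays. Orange points are member genes and green squares neutrophil and monocyte markers. *Hba-a1* and *Slc4a1* lie in the lower left beside *S100a9*, *Ngp*, *Camp* and *Ltf*, while the other 7 members lie closer to the origin.

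Beta-globin did not follow alpha-globin. All 4 probes of *Hbb-b1* were well above background on all arrays, and the brightest had log2 values of 6.58 and 7.95 in Meis1-KO 1 and 2, and 6.33 and 4.48 in Meis1-WT 1 and 2. The array Meis1-WT 2 was low and Meis1-KO 2 high at this probe. The genotype differences of the 4 probes were 1.86 to 2.07, with standard errors of 0.78 to 0.95, and none met the criteria, with or without the slide as a block. On slide 1 they were 0.25 to 0.60 and on slide 2 they were 3.38 to 3.73. The 4 probes lie within the same gene and are not replicates.

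**Figure D4:**
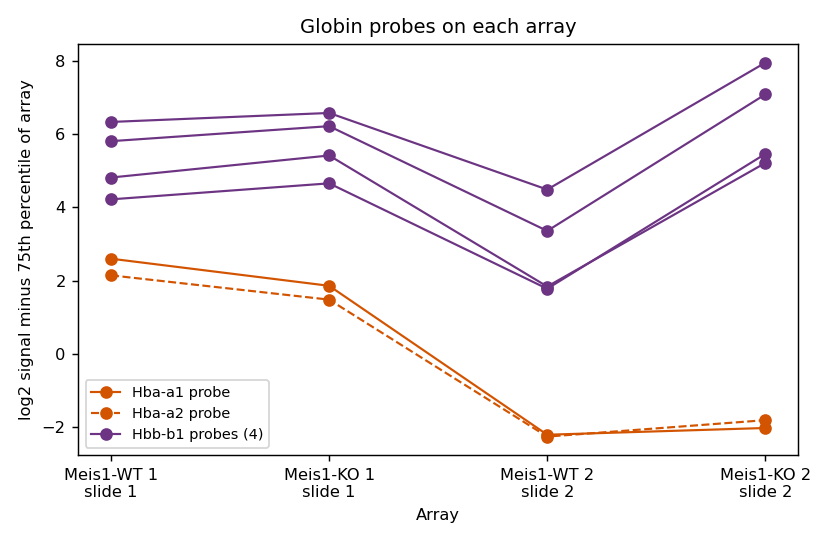
Log2 signal minus the 75th percentile of the array (vertical axis) on the 4 arrays (horizontal axis, ordered by slide) for the *Hba-a1*, *Hba-a2* and 4 *Hbb-b1* probes. Alpha-globin probes fall from above 1 on slide 1 to below -1 on slide 2 in both genotypes, and beta-globin probes are lowest in Meis1-WT 2.

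*Ahsp*, the chaperone of free alpha-globin, was lower in Meis1-KO. Its log2 values were -0.79 and -1.85 in Meis1-KO 1 and 2, and 0.28 and 0.41 in Meis1-WT 1 and 2, so that the genotypes did not overlap. The difference of -1.67 (standard error 0.52, or 0.50 with the block) met the criteria once the slide was blocked and not in the fit without the block. Of 8 globin and chaperone genes, 5 were tested, and 0 of 8 probes met the criteria without the block.

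Over 7 erythroid lists (transcription factors, globins, heme, iron, membrane, erythropoietin signaling and late enzymes), 88 of 102 genes were tested, 47 higher and 41 lower in Meis1-KO. Their median difference was 0.04, with -0.08 on slide 1 and 0.17 on slide 2, and 48.9% had the same sign on both slides, against 51.3% of all tested probes. Of 140 probes, 4 met the criteria, 3 higher and 1 lower, or 2.86% against 0.736%. With the slide as a block there were 7, 3 higher and 4 lower, or 5% against 1.93%. The lists contain the member genes except *Car1* and *Car2*, and were written with earlier results known.

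Membrane genes were split, with 8 of 16 tested genes higher and 8 lower. Of their 25 tested probes, 1 met the criteria, that of *Rhag*, beside 0.736% of all tested probes. *Ank1*, the gene of the membrane adaptor ankyrin, had values of -2.65 and -5.42 in Meis1-KO 1 and 2, and -1.63 and -1.86 in Meis1-WT 1 and 2. Its difference of -2.29 (standard error 0.89, or 0.62 with the block) met the criteria once the slide was blocked. It rests in part on the Meis1-KO 2 value, which was not well above background. On slide 1, where both arrays measured *Ank1*, the difference was -1.02. *Epb41*, the gene of protein 4.1R, differed by -1.22 (standard error 0.75) and *Ermap*, an erythroid adhesion protein gene, by -1.12 (standard error 0.43), and neither met the criteria.

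Among 19 tested probes of late erythroid genes, 1 met the criteria, that of *Pklr*, beside 0.736% of all tested probes. *Pklr* encodes the pyruvate kinase of liver and red cells. Its probe was not well above background in Meis1-KO and was at least 1.64-fold lower there (adjusted p = 0.983 by limma). A fall of more than 2-fold is therefore not established for *Pklr*. *Slc38a5*, a glutamine transporter gene, had values of -3.13 and -0.56 in Meis1-KO 1 and 2, and 0.01 and 1.08 in Meis1-WT 1 and 2. Its difference of -2.39 (standard error 0.90, or 0.53 with the block) met the criteria once the slide was blocked and not in the fit without the block. *Tent5c* differed by -0.93 (standard error 0.59).

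Genes of iron handling and of erythropoietin signaling had no probe past the criteria by limma, with or without the block, among 18 and 22 probes. Their medians were 0.16 and -0.003. *Epor*, the erythropoietin receptor gene, had values of -1.62 and -0.86 in Meis1-KO 1 and 2, and -2.43 and -1.12 in Meis1-WT 1 and 2. The genotypes overlapped, with a difference of 0.53 (standard error 0.60). *Jak2* differed by -0.86 (standard error 0.69), *Ptpn6* by 0.45 (standard error 0.42), *Slc11a2* by 0.41 (standard error 0.54), *Flvcr1* by 0.40 (standard error 0.53) and *Slc25a37* by 0.36 (standard error 0.45).

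Promoter sequences were matched for 6 of the 9 genes in the RefSeq table (GRCm38.p6, a different build from that of the probes), covering 250 bases before to 50 after the start site. The letters searched on both strands were the GATA factor hexamers AGATAA with its forms that begin in T or end in G, the KLF1-type letters CACCC, and also TGACAG, the hexamer of Meis homeodomains. A GATA hexamer lay in 4 of the 6 promoters (*Rhag*, *Klf1*, *Hba-a1* and *Alas2*) and CACCC in all 6. Among all 32851 promoters of the table the shares were 29.8% for GATA, 57.5% for CACCC and 19.2% for TGACAG. The Meis hexamer lay in the *Hba-a1* promoter, at position 15 from the start site, and not in the windows of the other 5. Such matches are descriptions of letters and not binding sites.

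3 promoters are shown, of a gene that differed by genotype (*Rhag*), of a gene that differed by slide (*Hba-a1*) and of a gene with little difference (*Alas2*). Capitals mark the GATA hexamers and CACCC matches, including those on the other strand. The GATA hexamer starts at -31 in *Rhag*, -183 in *Hba-a1* and -86 in *Alas2*, and CACCC occurs 3 times in *Alas2*.
*Rhag* promoter, chr17:40810899-40811198, plus strand: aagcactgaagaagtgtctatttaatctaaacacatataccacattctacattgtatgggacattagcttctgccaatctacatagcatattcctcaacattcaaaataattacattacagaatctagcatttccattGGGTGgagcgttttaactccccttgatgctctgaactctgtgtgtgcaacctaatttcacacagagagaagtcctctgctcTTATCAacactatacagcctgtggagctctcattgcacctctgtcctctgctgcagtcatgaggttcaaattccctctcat
*Hba-a1* promoter, chr11:32283422-32283721, plus strand: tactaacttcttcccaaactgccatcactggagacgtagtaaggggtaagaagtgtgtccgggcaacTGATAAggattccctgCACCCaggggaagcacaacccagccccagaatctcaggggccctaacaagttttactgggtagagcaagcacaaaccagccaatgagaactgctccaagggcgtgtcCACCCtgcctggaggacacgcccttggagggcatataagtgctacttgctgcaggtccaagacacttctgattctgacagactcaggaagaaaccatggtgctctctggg
*Alas2* promoter, chrX:150547167-150547466, plus strand: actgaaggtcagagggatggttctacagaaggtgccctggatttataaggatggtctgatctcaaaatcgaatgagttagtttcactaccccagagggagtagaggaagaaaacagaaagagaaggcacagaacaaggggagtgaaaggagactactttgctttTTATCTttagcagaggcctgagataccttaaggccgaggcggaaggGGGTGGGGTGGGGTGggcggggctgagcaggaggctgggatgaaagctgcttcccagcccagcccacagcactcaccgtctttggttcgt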

How the data were processed

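RNA of LSK cells was measured on 4 one-color Agilent arrays, 2 per genotype, each from 1 pool, of which 10 ng of total RNA was the input to amplification. Samples were grouped by their labels. The authors deposited spot intensities from Feature Extraction, background-subtracted and detrended within each array and not scaled between arrays. The labels name version 9.1 and the file headers 9.5.3.1. No spot was saturated. A table of the series holds the same intensities, rounded.

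From the deposited intensities, log2 values were computed here without control and outlier spots, spots of a probe were averaged, and arrays were scaled to a common 75th percentile. A surrogate stands in for 25.2% to 33.2% of spots per array. Probes that were well above background throughout 1 or both genotypes were fitted with lmFit and eBayes (limma 3.58.1, R 4.3.3), genotype as the only term. For probes dim on both arrays of a genotype, folds are bounds against the lowest signal well above background on each array. Tested on simulated arrays with 200 of 22008 probes changed by 3 (log2), this fit called 83.5%, each with the right sign, and also 224 unchanged probes. With an array left out, the lone array of its genotype is taken to vary like the other pair. On arrays, their number limits the precision.

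Replicate numbers mark the slide, as the file headers record. Deviations of same-slide arrays correlated at 0.266 across probes, so values with the slide as a block are given where they change a call.

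The member genes and lists were chosen with earlier results of these data known. Named are all members, list genes past the criteria or among the 3 largest differences of their list, and the 5 genes closest to *Rhag*. Genes named for their slide difference, and *Rhd*, *Ermap*, *Sox6* and *Zbtb7a*, were chosen after their values were seen, as was the alternative without scaling. Positions are those of mm9 in the array files. Exon and UTR annotation was not used here. Some single genes of the lists are counted but not reported here. Accessions of 9 of 9 members matched RefSeq symbols.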

Additional observations from a re-analysis of the deposited data

How the results depend on the processing

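By limma, 132 probes were lower and 30 higher by the study's criteria, 0 of 22008 had an adjusted p under 0.05 (618 had an unadjusted p under 0.05, and the methods' t-test gave 533 and 0), and 4 of 140 erythroid list probes met the criteria. When the slide entered as a replicate block, which follows the pairing of the replicate numbers, these counts were 297, 127 and 7, and 34 probes had an adjusted p under 0.05. Among the member genes the block changed the call of *Car1* alone. The counts were 45, 2 and 0 after normexp, 44, 10 and 1 with probes above background on all arrays, 23, 7 and 0 by the methods' t-test, and 86, 16 and 0 with an intensity trend. No filter gave 101 higher probes, and 3 of 41158 probes then had an adjusted p under 0.05. With no scaling, added after seeing the data, there were 14 higher and 1 erythroid list probe. The median over all tested probes was then -0.30 in place of 0.08. With each array left out in turn, the counts ranged from 60 to 1733 lower, 34 to 516 higher and 0 to 12 erythroid list probes. Without Meis1-KO 1 they were 1733, 516 and 12, and without Meis1-WT 2 they were 75, 49 and 0. Without Meis1-KO 2 there were 263 lower probes, and without Meis1-WT 1 there were 60 lower and 51 higher. The *Rhag* difference of 1.72 moved to 0.85 after normexp and 1.35 with no scaling. The causes were not tested. Signals near background limited *Rhag*, *Alas2*, *Slc4a1*, *Alad* and *Pklr*.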

Other observations

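Marker genes of other blood cells included values that belong to none of the erythroid comparisons. *Treml1*, a receptor of megakaryocytes and platelets, had log2 values of -2.95 and -2.20 in Meis1-KO 1 and 2, and -0.70 and 0.84 in Meis1-WT 1 and 2. It fell by 2.65 on the log2 scale (standard error 0.64, adjusted p = 0.983 by limma), and was the only 1 of 10 tested megakaryocyte probes to meet the criteria, beside 0.736% of all tested probes. *Itga2b* and *Pf4* differed by -1.65 (standard error 0.66) and -1.35 (standard error 0.82). *Elane*, the neutrophil elastase gene, fell by 1.58 on the log2 scale (standard error 0.42, adjusted p = 0.983 by limma), while *Ctsg*, another granule protease gene, differed by 0.92 (standard error 0.59) and did not meet the criteria.

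Of the 15 LSK marker probes tested, 2 met the criteria, beside the same 0.736%, those of *Flt3* and *Hlf*, with differences of -3.33 (standard error 0.80) and -2.42 (standard error 0.55), and *Flt3* was well above background on 3 of 4 arrays. Its difference rests in part on the dim Meis1-KO 2 spot, and on slide 1, where both arrays measured it, it was -2.12. *Meis1* itself had values of 0.28 and 0.24 in Meis1-KO 1 and 2, and 1.04 and 1.47 in Meis1-WT 1 and 2, and its probe position relative to the deleted exon was not analysed here. None of 6 tested B lineage genes met the criteria, though all 6 were lower in Meis1-KO, with *Dntt* at -1.18 (standard error 0.52), *Rag1* at -0.79 (standard error 0.56) and *Blnk* at -0.73 (standard error 0.57). No mast cell, basophil or eosinophil probe met them either, with *Mcpt8* at 1.54 (standard error 0.67), *Hdc* at -1.36 (standard error 0.43) and *Prg2* at -1.10 (standard error 0.88).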
